A study of Homo sapiens with 27 samples.

Results

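The genes that set the pace of the G1 phase were described in MCF10A, a human mammary epithelial line that is immortal but does not form tumours. They are 10 genes chosen by symbol out of 36536 gene names in the count table: the D-type cyclins CCND1, CCND2 and CCND3, their kinases CDK4 and CDK6, the CIP/KIP inhibitors CDKN1A, CDKN1B and CDKN1C, and the INK4 inhibitors CDKN2B and CDKN2C. All 10 were found, 9 had enough counts to be tested, and CDKN2B was listed at 0 in all 27 libraries. Cells were grown with EGF at 20 ng/ml, moved to medium without growth factors for 18 h, and then given EGF (epidermal growth factor), OSM (oncostatin M, a cytokine that signals through gp130) or TGFB (transforming growth factor beta), each at 10 ng/ml. RNA was profiled 24 h after the ligands, or at 0 h in the T0 control, in 9 groups of 3 libraries: T0 (no treatment), PBS, EGF, OSM, TGFB, EGF+OSM, EGF+TGFB, OSM+TGFB and EGF+OSM+TGFB. The series asks how such signals combine, and whether their effects add. All groups share 1 cell line, and the groups with ligands and PBS share the period without growth factors. The labels do not say whether T0 was collected before or after that period. They number the replicates but do not say whether they were separate cultures. Each p-value sets a difference against the spread between libraries within groups, estimated over all 27. Whether that spread is one between separate cultures cannot be told.

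D-type cyclins bind CDK4 and CDK6, and the active pairs phosphorylate the retinoblastoma protein, which releases E2F factors and lets cells enter S phase. INK4 proteins bind CDK4 and CDK6 and block them. CIP/KIP proteins (p21, p27 and p57) inhibit cyclin-CDK2 and also bind cyclin D complexes. In epithelial cells EGF is known to raise cyclin D1 through ERK signalling, and TGFB is known as an inhibitor of growth that raises CDKN2B and CDKN1A and lowers MYC.

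Library totals ran from 30143162 to 52947078 estimated counts. Levels are CPM, the counts of a gene scaled to the library total after TMM scaling, given for replicates 1, 2 and 3 in that order. Called genes are those that passed edgeR's quasi-likelihood test at a threshold of 0.05 after Benjamini-Hochberg adjustment over 15575 genes, and each difference is a log2 fold change with its standard error (SE). All 8 basal and epithelial markers checked, such as KRT5 and TP63, averaged over 1 CPM. Of 4 fibroblast markers COL1A1 and DCN did too, as did KDR of 4 endothelial and CD68 of 4 leukocyte markers, and they moved with treatment: mean DCN was 91.6 CPM in PBS and 11.3 in EGF, KDR 30.2 and 0.8701, and COL1A1 38.7 in PBS and 111 in TGFB. The summed fibroblast markers ran from 12.9 to 214 CPM over libraries. Among the rest of these lists, PTPRC and CD3E (leukocytes) reached at most 0.225 CPM, CDH5, PECAM1 and VWF (endothelium) 0.144, 2.06 and 3.52 CPM, and COL3A1 and PDGFRB (fibroblasts) 0.0581 and 1.04 CPM. Of 4 luminal markers GATA3 and FOXA1 averaged over 1 CPM, GATA3 at 26.3 CPM in PBS and 13.5 in EGF and FOXA1 at 5.08 and 8.07, while ESR1 and PGR reached at most 3.42 and 0.0313 CPM. The part of these markers in the results was not tested. The libraries are of bulk RNA, so a change in the share of cells in a cycle phase and a change of RNA per cell cannot be told apart.

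**Figure D1:**
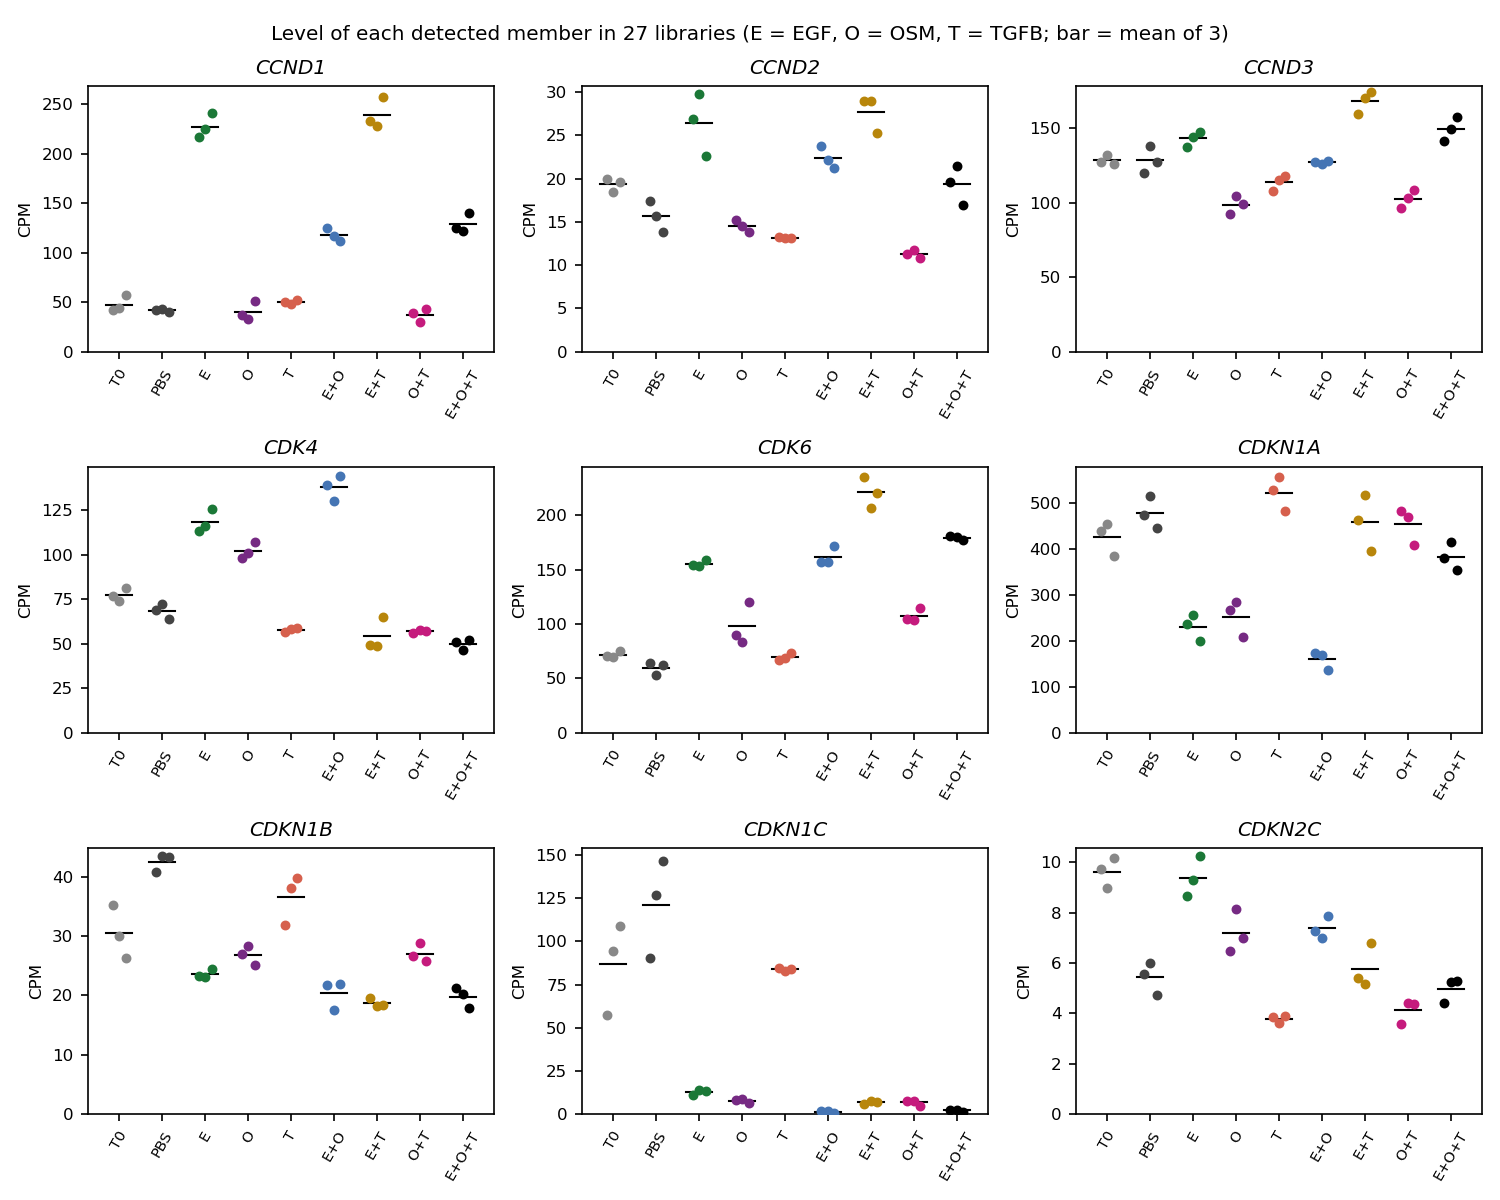
Level in CPM (vertical axes, from 0) of the 9 detected members in all 27 libraries, by group on the horizontal axes; points are libraries and bars are the means of 3. CCND1 stands high in the 4 groups with EGF, CDKN1C is near the bottom of its axis in the 6 groups with EGF or OSM, and where TGFB was added to EGF, OSM or both, CDK4 lies lower and CDKN1A higher than without it.

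CCND1 (ENSG00000110092, chromosome 11, 69641156 to 69654474, plus strand on GRCh38), the D-type cyclin best known as an ERK target, rose in the 4 groups that held EGF. It stood at 41.9, 43.4 and 40.6 CPM in PBS and at 216, 225 and 241 CPM in EGF, so the groups did not overlap (log2 fold change 2.44 ± 0.14 SE, edgeR adjusted p = 5.31e-13). With OSM it stood at 37.6, 32.9 and 50.9 CPM, which overlapped PBS, a difference of -0.06 ± 0.13 (adjusted p = 0.741). OSM and EGF differed from each other in this gene by -2.49 ± 0.14 (adjusted p = 1.49e-12). Adding OSM to EGF left CCND1 at 125, 117 and 111 CPM, below every EGF library and above every PBS library, a fall against EGF with a log2 fold change of -0.95 ± 0.13 (adjusted p = 4.45e-06). With EGF+TGFB it stood at 232, 228 and 257 CPM, overlapping EGF alone (difference 0.07 ± 0.13, adjusted p = 0.661). The 3 ligands together gave 125, 122 and 140.4 CPM, overlapping EGF+OSM. TGFB alone gave 50.0, 48.6 and 52.7 CPM, above every PBS library but not called (0.26 ± 0.13, adjusted p = 0.134); in a fit of these 2 groups only the same difference was called. CCND1 group means in CPM ran, from high to low, EGF+TGFB (239 ± 15.7), EGF (227 ± 12.4), EGF+OSM+TGFB (129 ± 9.88), EGF+OSM (118 ± 6.66), TGFB (50.4 ± 2.08), T0 (47.6 ± 8.26), PBS (41.97 ± 1.42), OSM (40.5 ± 9.31), OSM+TGFB (37.3 ± 6.54) (SD, n = 3). For CCND1, ranges were separate between EGF and EGF+OSM+TGFB and between EGF+OSM and TGFB, and overlapped at the other steps.

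CCND2 (ENSG00000118971, chromosome 12, 4269771 to 4305353, plus strand) followed EGF with smaller differences. It was at 17.4, 15.6 and 13.9 CPM in PBS and 26.9, 29.7 and 22.7 CPM in EGF (0.76 ± 0.09 SE, adjusted p = 5.80e-08). Its lowest group was OSM+TGFB, at 11.3, 11.8 and 10.8 CPM, below every PBS library (-0.47 ± 0.10, adjusted p = 1.59e-04). Its fall with TGFB alone (-0.25, adjusted p = 0.0477) was not called without 5 of the 6 libraries: without PBS replicate 1 it was -0.16, without PBS replicate 2 -0.25, and without TGFB replicates 1, 2 or 3 -0.25, -0.24 and -0.25, nor with the rows as deposited. The value with all 3 ligands against PBS (0.30) was not called without EGF+OSM+TGFB replicate 2 (0.23), without PBS replicate 3 (0.23) or under upper-quartile scaling (0.21). CCND2 group means in CPM ran, from high to low, EGF+TGFB (27.7 ± 2.14), EGF (26.4 ± 3.56), EGF+OSM (22.4 ± 1.31), EGF+OSM+TGFB (19.3 ± 2.31), T0 (19.3 ± 0.828), PBS (15.6 ± 1.78), OSM (14.5 ± 0.689), TGFB (13.2 ± 0.0736), OSM+TGFB (11.3 ± 0.473) (SD, n = 3). For CCND2, ranges were separate between T0 and PBS, between OSM and TGFB and between TGFB and OSM+TGFB, and overlapped at the other steps.

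CCND3 (ENSG00000112576, chromosome 6, 41934934 to 42050357, minus strand) moved least of the 9: its highest group mean was 1.704 times its lowest, against 6.41 times for CCND1 and 2.45 times for CCND2. It fell with OSM, from 120.2, 138 and 127 CPM in PBS to 92.5, 104 and 99.0 CPM (-0.38 ± 0.06 SE, adjusted p = 2.15e-06), with no overlap. It rose with EGF+TGFB, to 159.5, 170.3 and 174 CPM (0.39 ± 0.06, adjusted p = 9.56e-07). The EGF value of 0.16 lost its call without PBS replicate 1 (0.11), without EGF replicate 3 (0.14) and under upper-quartile scaling (0.09), and the TGFB value of -0.18 without TGFB replicate 1 (-0.14) or PBS replicate 2 (-0.12). CCND3 group means in CPM ran, from high to low, EGF+TGFB (168 ± 7.57), EGF+OSM+TGFB (149 ± 8.24), EGF (143 ± 5.15), T0 (128 ± 3.23), PBS (128 ± 8.84), EGF+OSM (127 ± 1.02), TGFB (114 ± 5.298), OSM+TGFB (103 ± 6.12), OSM (98.6 ± 5.83) (SD, n = 3). For CCND3, ranges were separate between EGF+TGFB and EGF+OSM+TGFB, between EGF and T0 and between EGF+OSM and TGFB, and overlapped at the other steps.

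Levels of different genes were compared per kilobase (kb) of the canonical transcript in GENCODE v44, 4238 nucleotides for CCND1, 6493 for CCND2 and 2026 for CCND3. On that scale CCND3 held 83.7 ± 1.02% of the D-type cyclin signal in PBS and CCND1 13.1 ± 0.559% (SD, n = 3). In EGF the share of CCND1 was 41.8 ± 0.789%, in EGF+OSM 29.5 ± 1.13% and in OSM 15.8 ± 3.21%. The CCND3 share stayed the larger in each group, 55.04 ± 0.295% in EGF, where it was lowest. These shares assume that the canonical transcript is the one expressed, which the table does not show.

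**Figure D2:**
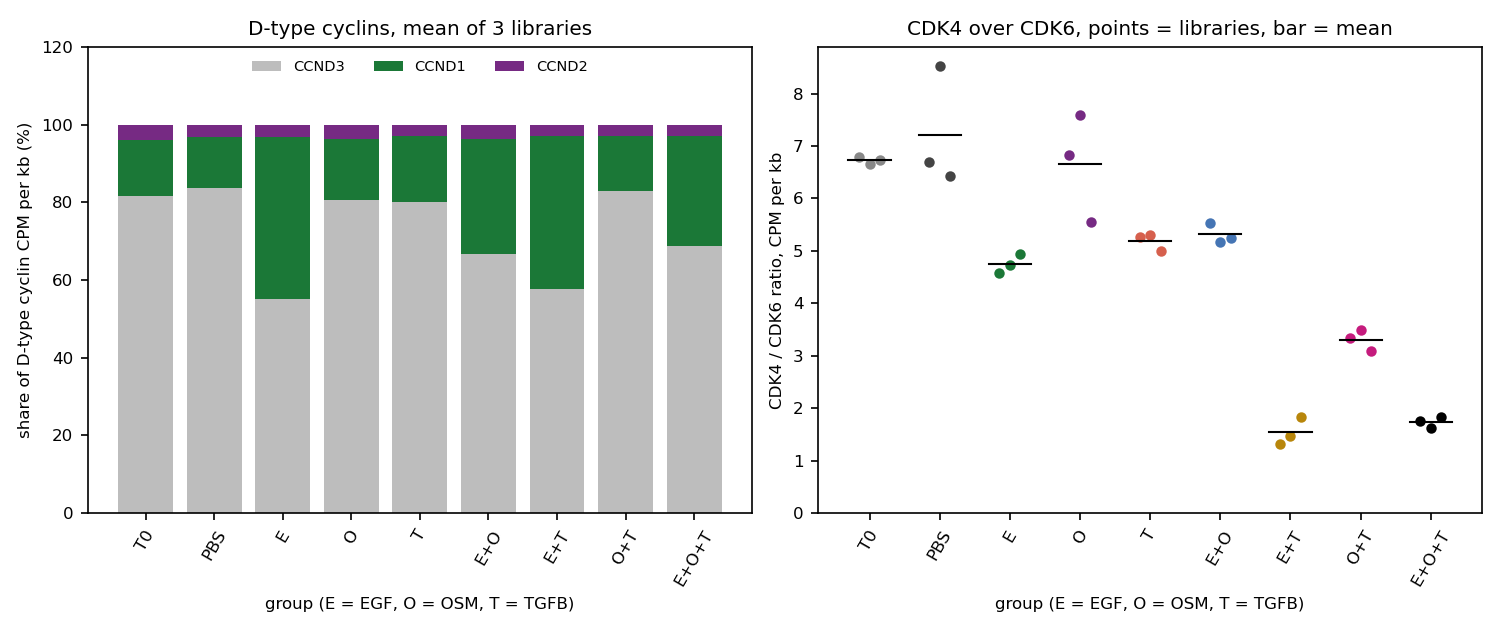
Left, shares (percent, mean of 3 libraries) of the D-type cyclins in their summed CPM per kb, by group; right, the ratio of CDK4 to CDK6 in CPM per kb in each library, with the group mean as a bar. The CCND1 share is largest in EGF (41.8%), and the CDK4 to CDK6 ratio is lowest in EGF+TGFB (1.54) and EGF+OSM+TGFB (1.73).

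The kinases CDK4 (ENSG00000135446, chromosome 12, 57747727 to 57756013, minus strand) and CDK6 (ENSG00000105810, chromosome 7, 92604921 to 92836573, minus strand) both rose with EGF and with OSM and parted once TGFB was present. CDK4 stood at 68.7, 72.2 and 64.1 CPM in PBS, 113, 116 and 126 CPM in EGF (0.79 ± 0.08 SE, adjusted p = 7.36e-10) and 97.9, 101 and 107 CPM in OSM (0.58 ± 0.08, adjusted p = 2.59e-07). EGF+OSM was its highest group, at 139, 130.1 and 144 CPM, above every library of the other 8 groups. With TGFB in the medium CDK4 was low whatever else was given: 56.8, 58.1 and 58.7 CPM in TGFB, 49.5, 48.7 and 64.9 CPM in EGF+TGFB, 56.1, 57.7 and 56.9 CPM in OSM+TGFB and 50.9, 46.5 and 51.8 CPM in EGF+OSM+TGFB. Of these 12 libraries, only EGF+TGFB replicate 3 reached the level of the lowest PBS library. The fall with TGFB alone (-0.24 ± 0.08, adjusted p = 0.0153) was small and was not called without TGFB replicate 1 (-0.23) or PBS replicate 2 (-0.20). Against PBS the values were -0.34 in EGF+TGFB, -0.26 in OSM+TGFB and -0.46 with all 3, all called. CDK4 group means in CPM ran, from high to low, EGF+OSM (138 ± 7.12), EGF (118 ± 6.598), OSM (102 ± 4.76), T0 (77.5 ± 3.68), PBS (68.4 ± 4.08), TGFB (57.9 ± 0.986), OSM+TGFB (56.9 ± 0.816), EGF+TGFB (54.4 ± 9.17), EGF+OSM+TGFB (49.7 ± 2.804) (SD, n = 3). For CDK4, ranges were separate between EGF+OSM and EGF, between EGF and OSM, between OSM and T0, between T0 and PBS and between PBS and TGFB, and overlapped at the other steps.

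CDK6 stood at 64.1, 52.98 and 62.4 CPM in PBS and 154, 153 and 159 CPM in EGF (1.38 ± 0.09 SE, adjusted p = 3.12e-12). It was highest in EGF+TGFB, at 236, 207 and 221 CPM, with no overlap with any other group. With OSM it was at 89.7, 83.2 and 121 CPM (0.71 ± 0.09, adjusted p = 4.28e-07), where replicate 3 stood above the other 2. TGFB alone gave 67.5, 68.6 and 73.5 CPM, above every PBS library but not called (0.22 ± 0.09, adjusted p = 0.0666); without PBS replicate 1 the value was 0.28 and passed the threshold, as it did with the replicate block (0.23) and in a fit of these groups only (0.22). CDK6 group means in CPM ran, from high to low, EGF+TGFB (221 ± 14.3), EGF+OSM+TGFB (179.6 ± 2.12), EGF+OSM (162 ± 8.39), EGF (156 ± 3.06), OSM+TGFB (108 ± 6.31), OSM (97.9 ± 20.1), T0 (71.99 ± 3.12), TGFB (69.9 ± 3.2), PBS (59.8 ± 5.996) (SD, n = 3). For CDK6, ranges were separate between EGF+TGFB and EGF+OSM+TGFB, between EGF+OSM+TGFB and EGF+OSM, between EGF and OSM+TGFB, between OSM and T0 and between TGFB and PBS, and overlapped at the other steps. Per kb, the ratio of CDK4 to CDK6 was 7.22 ± 1.14 in PBS (SD, n = 3), 4.75 ± 0.179 in EGF, 6.66 ± 1.03 in OSM and 1.54 ± 0.268 in EGF+TGFB. CDK4 exceeded CDK6 on that scale in each of the 27 libraries, and the CDK6 canonical transcript, at 11663 nucleotides against 1865 for CDK4, sets much of the ratio's size.

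All CIP/KIP genes fell with EGF and with OSM. CDKN1A (ENSG00000124762, chromosome 6, 36676460 to 36687337, plus strand), which encodes p21, stood at 473, 515 and 444 CPM in PBS. It fell to 236, 255 and 199.8 CPM in EGF (-1.05 ± 0.12 SE, adjusted p = 8.10e-08) and to 266, 285 and 208 CPM in OSM (-0.92 ± 0.12, adjusted p = 8.88e-07). EGF+OSM was its lowest group, at 173, 169 and 137 CPM, below every other library (-1.58 ± 0.12, adjusted p = 9.79e-11). TGFB alone left it at 527, 557 and 482 CPM, overlapping PBS, and was not called (0.13 ± 0.12, edgeR adjusted p = 0.45). Each TGFB library stood above the PBS library of the same number, and with the replicate block the difference was called (0.13). In the TGFB pairs CDKN1A overlapped PBS as well, with 464, 518 and 395 CPM in EGF+TGFB (-0.06 ± 0.12, adjusted p = 0.681) and 482, 469 and 409 CPM in OSM+TGFB (-0.08 ± 0.12, adjusted p = 0.601). With all 3 ligands it was at 380.3, 415 and 355 CPM; that fall (-0.32) was not called without PBS replicate 2 (-0.26) or without EGF+OSM+TGFB replicate 1 (-0.31) or 3 (-0.26), nor with no filter on low counts. CDKN1A group means in CPM ran, from high to low, TGFB (522 ± 37.9), PBS (478 ± 35.7), EGF+TGFB (459 ± 61.5), OSM+TGFB (453 ± 38.6), T0 (426 ± 36.2), EGF+OSM+TGFB (384 ± 30.4), OSM (253 ± 40.04), EGF (230.3 ± 28.3), EGF+OSM (159.6 ± 19.6) (SD, n = 3). For CDKN1A, ranges were separate between EGF+OSM+TGFB and OSM and between EGF and EGF+OSM, and overlapped at the other steps.

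CDKN1B (ENSG00000111276, chromosome 12, 12685498 to 12722369, plus strand), which encodes p27, was highest in PBS, at 40.8, 43.6 and 43.4 CPM. It fell to 23.2, 23.1 and 24.5 CPM in EGF (-0.85 ± 0.09 SE, adjusted p = 1.08e-08) and to 26.9, 28.3 and 25.1 CPM in OSM (-0.67 ± 0.09, adjusted p = 8.73e-07). EGF+TGFB was its lowest group, at 19.5, 18.1 and 18.3 CPM (-1.19 ± 0.10, adjusted p = 2.96e-11). Where CDKN1A overlapped its PBS range in EGF+TGFB and OSM+TGFB, CDKN1B did not: its highest library among EGF+TGFB, OSM+TGFB and EGF+OSM+TGFB stood at 28.8 CPM, below the lowest PBS library. TGFB alone gave 31.9, 38.2 and 39.8 CPM, also below every PBS library and not called (-0.22 ± 0.09, adjusted p = 0.0721); it was called without TGFB replicate 3 (-0.28) and under upper-quartile scaling (-0.25). CDKN1B group means in CPM ran, from high to low, PBS (42.6 ± 1.56), TGFB (36.6 ± 4.198), T0 (30.5 ± 4.52), OSM+TGFB (27.1 ± 1.55), OSM (26.8 ± 1.63), EGF (23.6 ± 0.795), EGF+OSM (20.4 ± 2.47), EGF+OSM+TGFB (19.8 ± 1.71), EGF+TGFB (18.6 ± 0.7203) (SD, n = 3). For CDKN1B, ranges were separate between PBS and TGFB, between OSM and EGF and between EGF and EGF+OSM, and overlapped at the other steps.

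CDKN1C (ENSG00000129757, chromosome 11, 2883213 to 2885775, minus strand), which encodes p57, had the widest range of the 9, with a highest group mean 93.5 times the lowest. The table holds 2 rows for this symbol, the second under ENSG00000273707, and the counts were split between them unevenly, with 1.67% in the first row in one library and all of them there in another, so the rows were summed. The sum was 90.2, 127 and 147 CPM in PBS, 10.7, 13.8 and 13.2 CPM in EGF (-3.27 ± 0.25 SE, adjusted p = 3.20e-10) and 7.86, 8.81 and 6.34 CPM in OSM (-3.98 ± 0.27, adjusted p = 6.06e-11). EGF+OSM held 1.62, 1.82 and 0.455 CPM (-6.54 ± 0.34, adjusted p = 2.86e-13), from 60, 78 and 18 estimated counts. Every library with EGF or OSM lay below every library without them. TGFB alone gave 84.8, 82.7 and 84.1 CPM, below each PBS library and not called (-0.53 ± 0.22, adjusted p = 0.0721), though without PBS replicate 1 it was -0.71 and passed. The difference between OSM and EGF (-0.70) lost its call without OSM replicates 1 or 3 (-0.72 and -0.59) and without EGF replicates 2 or 3 (-0.63 and -0.67), and also with no filter or with the rows as deposited. CDKN1C group means in CPM ran, from high to low, PBS (121 ± 28.8), T0 (86.9 ± 26.5), TGFB (83.9 ± 1.07), EGF (12.5 ± 1.65), OSM (7.67 ± 1.24), EGF+TGFB (6.73 ± 1.12), OSM+TGFB (6.61 ± 1.66), EGF+OSM+TGFB (1.99 ± 0.669), EGF+OSM (1.299 ± 0.737) (SD, n = 3). For CDKN1C, ranges were separate between TGFB and EGF, between EGF and OSM and between OSM+TGFB and EGF+OSM+TGFB, and overlapped at the other steps. Per kb, CDKN1A held 72.5 ± 4.62% of the CIP/KIP signal in PBS (SD, n = 3), 86.5 ± 1.895% in EGF and 95.1 ± 0.398% with all 3 ligands.

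Of the INK4 genes, CDKN2C (ENSG00000123080, chromosome 1, 50960745 to 50974634, plus strand), which encodes p18, was low but measured in every library. It stood at 5.55, 6.02 and 4.72 CPM in PBS, 8.66, 9.3 and 10.2 CPM in EGF (0.79 ± 0.12 SE, adjusted p = 1.40e-06) and 6.46, 8.14 and 6.99 CPM in OSM (0.41 ± 0.12, adjusted p = 0.00439). It thus rose in EGF and in OSM, where all 3 CIP/KIP genes fell. TGFB alone lowered it to 3.84, 3.63 and 3.88 CPM, below every PBS library (-0.52 ± 0.13, adjusted p = 0.00163). Its fall in OSM+TGFB against PBS (-0.40) was not called without OSM+TGFB replicate 1 (-0.30) or PBS replicate 2 (-0.32). CDKN2C group means in CPM ran, from high to low, T0 (9.64 ± 0.607), EGF (9.4 ± 0.798), EGF+OSM (7.38 ± 0.4401), OSM (7.199 ± 0.859), EGF+TGFB (5.78 ± 0.878), PBS (5.43 ± 0.6597), EGF+OSM+TGFB (4.96 ± 0.487), OSM+TGFB (4.13 ± 0.484), TGFB (3.78 ± 0.135) (SD, n = 3). For CDKN2C, ranges were separate between EGF and EGF+OSM, and overlapped at the other steps.

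CDKN2B (ENSG00000147883, chromosome 9, 22002903 to 22009305, minus strand), which encodes p15 and is known as a TGFB target in epithelial cells, was at 0 in all 27 libraries, those with TGFB included. A count of 0 allows up to 3 counts, or 0.0566 to 0.105 CPM over the libraries after TMM scaling, a limit that covers counting error only. MCF10A is known for a loss at 9p21 that takes in the neighbouring CDKN2A. DNA was not measured here. CDKN2A (21967752 to 21995301 on chromosome 9) was also at 0 in all 27. The next protein-coding genes in the table, MTAP on one side and DMRTA1 on the other, were looked at after these values were seen, and reached at most 0.579 and 1.29 CPM. Levels further out were mixed. On the MTAP side the interferon genes in the table reached at most 0.216 CPM, KLHL9, which lies among them, ran from 16.6 to 26.3 CPM, HACD4 beyond them from 0.0216 to 0.325 CPM, and then FOCAD from 36.6 to 56.6 CPM and MLLT3 from 1.34 to 8.82 CPM. On the DMRTA1 side ELAVL2 ran from 2.499 to 13.2 CPM.

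Counted over the 9 tested genes, 9 were called (6 higher and 3 lower; the background was 73.5% of all genes tested, 34.9% higher and 38.6% lower) in EGF against PBS. The background is the share of all genes called in the same comparison. In OSM 7 were called (3 higher and 4 lower; the background was 63.4% of all genes tested, 33.5% higher and 29.8% lower). In TGFB 4 were called, all lower (the background was 35.6% of all genes tested, 19.9% higher and 15.8% lower). The TGFB count fell to 1, CDKN2C, without TGFB replicate 1 or without PBS replicate 2, and was 7 in a fit of the 2 groups only, where CCND1, CDK6 and CDKN1B were called too. In EGF+OSM 8 were called (5 higher and 3 lower; the background was 77.2% of all genes tested, 37.6% higher and 39.6% lower), and in EGF+TGFB 7 were called (4 higher and 3 lower; the background was 73.7% of all genes tested, 36.2% higher and 37.5% lower). In OSM+TGFB 7 were called (1 higher and 6 lower; the background was 66.0% of all genes tested, 34.2% higher and 31.8% lower), and in EGF+OSM+TGFB 8 were called (4 higher and 4 lower; the background was 74.4% of all genes tested, 37.7% higher and 36.7% lower). With so large a part of all genes past the threshold, these counts do not set the members apart. The 7 comparisons share the PBS libraries. Median log2 fold changes of the members were 0.76 with EGF, -0.11 with OSM and -0.22 with TGFB, against -0.07, 0.00 and -0.01 over all genes tested.

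**Figure D3:**
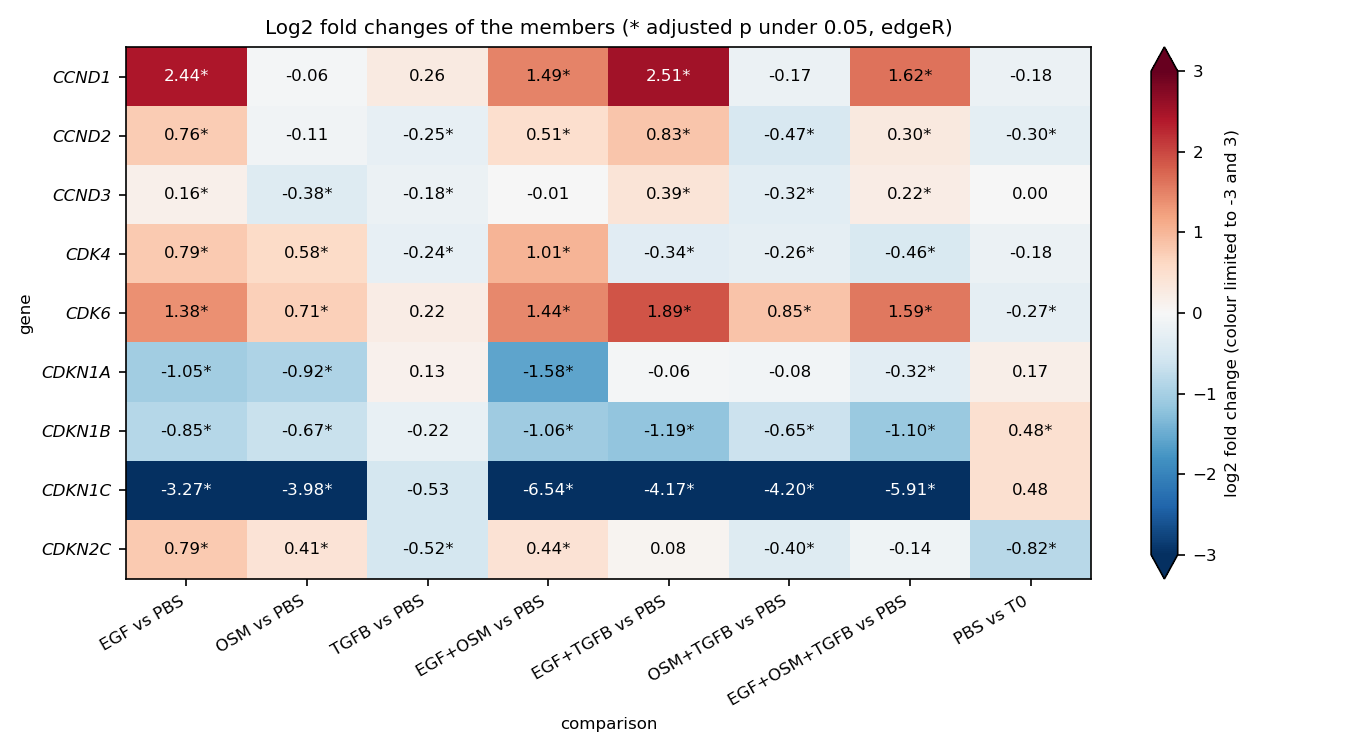
Log2 fold changes of the 9 tested members (rows) in the 7 treatments against PBS and in PBS against T0 (columns); colour shows the value, limited to -3 and 3, and an asterisk an edgeR adjusted p under 0.05. CDKN1C has the strongest falls, to -6.54 in EGF+OSM, and CCND1 the strongest rise, 2.51 in EGF+TGFB.

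The effect of TGFB was compared on each background, that is, with EGF, OSM or both also in the medium. CDK4 and CDKN1A turned in opposite directions on all 3 ligand backgrounds. CDK4 fell by 1.12 on EGF (SE 0.08, adjusted p = 6.60e-12), by 0.84 on OSM (SE 0.08, adjusted p = 1.42e-09) and by 1.47 on EGF+OSM (SE 0.08, adjusted p = 3.21e-14), all log2. CDKN1A rose by 1.00 ± 0.12 on EGF (SE, adjusted p = 4.90e-07), by 0.84 ± 0.12 on OSM (adjusted p = 5.02e-06) and by 1.26 ± 0.12 on EGF+OSM (adjusted p = 9.62e-09). In every one of these 6 comparisons the libraries with and without TGFB did not overlap. CDKN2C fell too, with log2 fold changes of -0.71 ± 0.12 on EGF, -0.81 ± 0.12 on OSM and -0.58 ± 0.12 on EGF+OSM (adjusted p = 1.46e-05, 5.41e-06 and 2.19e-04). CDK6 rose on EGF (0.51 ± 0.09, adjusted p = 4.50e-05); on OSM it was at 0.14 ± 0.09 (adjusted p = 0.215), and 0.32 and called without OSM replicate 3. On EGF+OSM CDK6 was at 0.15 ± 0.09 (adjusted p = 0.164), with no overlap between the groups, and was called in a fit of these groups only (0.13). CCND2 on EGF+OSM was at -0.21 ± 0.09 (adjusted p = 0.0546) and was called under 6 of 12 alternatives, among them DESeq2 (-0.24) and the replicate block (-0.21). CCND1 was not called on any of the 3, at 0.07, -0.12 and 0.14.

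When TGFB was added to EGF, 7 were called (3 higher and 4 lower; the background was 54.6% of all genes tested, 27.7% lower and the rest higher). On OSM 4 were called (1 higher and 3 lower; the background was 51.6% of all genes tested, 26.1% higher and 25.6% lower), and on EGF+OSM 4 were called (2 higher and 2 lower; the background was 61.1% of all genes tested, 31.6% higher and 29.5% lower). CDKN1C fell on EGF (-0.89 ± 0.28, adjusted p = 0.0109), a call that was lost without EGF+TGFB replicate 1 (-0.76). CDKN1B fell on EGF as well (-0.34 ± 0.10, adjusted p = 0.00465) and stood at 0.02 and -0.04 on the other backgrounds, not called. MYC, a factor known to act on CDK4 and CDKN1A and singled out after its values were seen, was at 330.0, 351 and 353 CPM in EGF and 163, 161 and 201 CPM in EGF+TGFB (-0.98 ± 0.09, adjusted p = 2.13e-09). It was at 393, 384 and 396 CPM in EGF+OSM and 173, 163 and 160.1 CPM with all 3 ligands (-1.24 ± 0.09, adjusted p = 1.99e-11). On OSM the MYC difference was -1.10 ± 0.09 (edgeR adjusted p = 3.55e-10), and with TGFB alone -0.38 ± 0.09 (adjusted p = 0.00147). The part of MYC in the changes of CDK4 and CDKN1A was not tested.

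**Figure D4:**
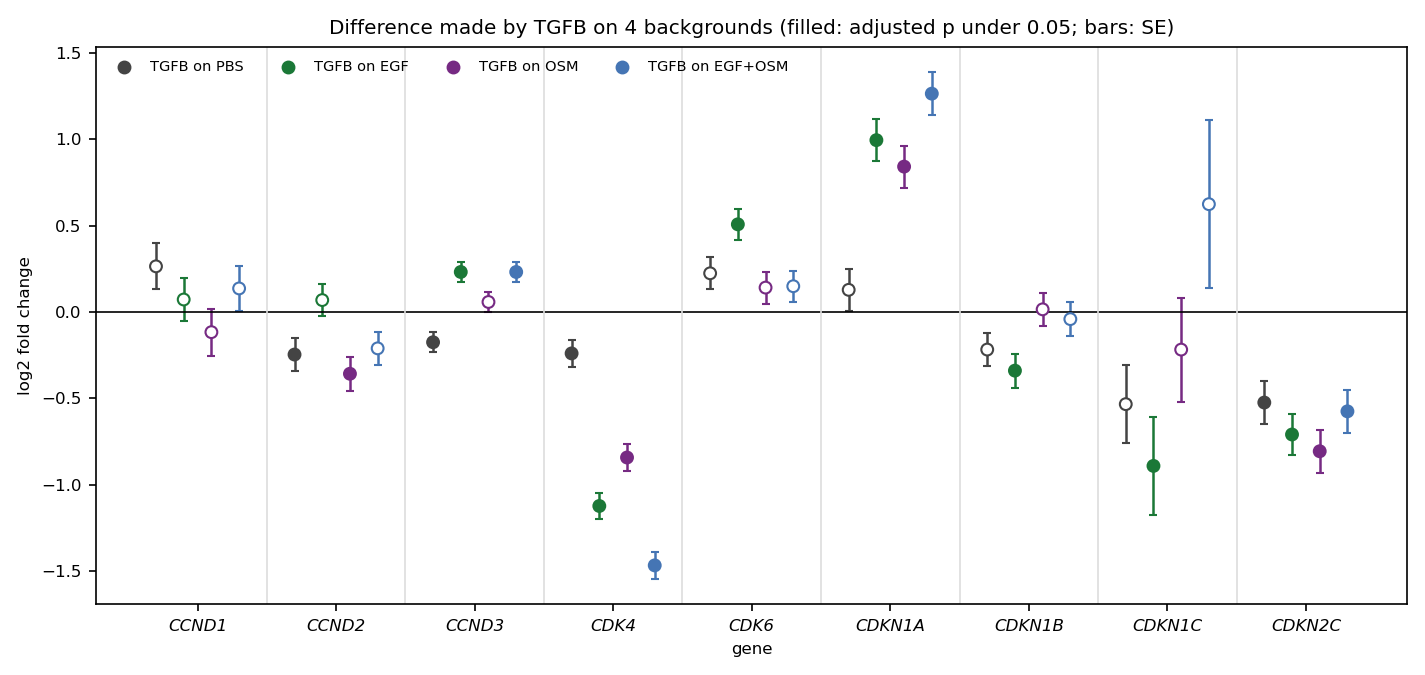
Log2 fold change made by TGFB (vertical axis, bars SE) for each of the 9 members on PBS, EGF, OSM and EGF+OSM; filled points passed the threshold in edgeR. CDK4 lies at -0.24 on PBS and -1.47 on EGF+OSM, and CDKN1A at 0.13 and 1.26.

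The promoters of these 2 genes are shown because they moved in opposite directions under TGFB, and because E-boxes (CACGTG, the MYC and MAX site) and GC boxes (GGGCGG, the SP1 site) are the sites for which each is known. RefSeq's promoter table (GRCh38.p14) gave sequences for 7 of the 10 members; CCND1, CCND2 and CDKN1C had none. Positions count from the starts in that table, 57752310 for CDK4 and 36678714 for CDKN1A. These differ from the ends of the GENCODE spans given above, which take in longer transcripts, and lie 3703 and 2254 bases inside them. Neither stretch overlaps an exon of its gene in GENCODE v44. The stretch before the CDK4 start is chr12:57752448-57752560, minus strand, bases -250 to -138 from it, with E-boxes in capitals. That before the CDKN1A start is chr6:36678584-36678708, plus strand, bases -130 to -6, with GC boxes in capitals.
CDK4 promoter: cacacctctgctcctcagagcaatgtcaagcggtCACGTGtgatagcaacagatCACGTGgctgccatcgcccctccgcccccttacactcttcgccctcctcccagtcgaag
CDKN1A promoter: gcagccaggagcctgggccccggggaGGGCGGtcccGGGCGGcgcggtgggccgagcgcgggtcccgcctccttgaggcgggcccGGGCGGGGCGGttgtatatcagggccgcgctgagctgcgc
Searched on both strands over the 250 bases before the table's start, CDK4 had 3 E-boxes, 2 of them in the stretch shown. At least 1 was held by 6.34% of the 35116 promoters listed, and at least as many as in CDK4 by 0.0797%. It also held 3 GC boxes. CDKN1A had 4 GC boxes, of which the last 2 overlap; 42.6% of promoters held at least 1 and 7.63% at least as many. No E-box matched in that window. In neither window were there matches to TTTNNCGC (E2F), TTCNNNGAA (STAT), GTCTAGAC (SMAD) or TGANTCA (AP-1), held by 5.92%, 6.57%, 0.182% and 6.57% of promoters. These are matches of letters and say nothing about binding in these cells.

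Additivity was tested on the log2 scale: the departure is what a pair of ligands adds to, or takes from, the summed log2 fold changes of the 2 ligands given alone. For EGF+OSM 6 of the 9 departed (2 above and 4 below the sum; the background was 38.7% of all genes tested, 15.7% higher and 23.0% lower). CCND1 lay furthest below its sum among those called, at -0.90 ± 0.19 (SE, adjusted p = 5.50e-04): EGF raised it, OSM alone did not move it past the threshold, and the pair reached a level between PBS and EGF. CDKN1C, at 0.72 ± 0.50 (adjusted p = 0.278), was not called, with fold changes of -3.27 and -3.98 for the single ligands and -6.54 for the pair. For EGF+TGFB 3 departed (the background was 29.8% of all genes tested, 13.3% higher and 16.5% lower) and for OSM+TGFB 3 (the background was 23.3% of all genes tested, 9.61% higher and 13.7% lower), and in each they were CDK4, CDKN1A and CCND3. With the replicate block the EGF+TGFB count was 5, with CCND2 (0.31) and CDK6 (0.28) added. CDK4 lay 0.88 below its sum in EGF+TGFB (departure -0.88 ± 0.11, adjusted p = 1.43e-06), and at -0.60 ± 0.11 in OSM+TGFB (adjusted p = 2.14e-04). CDKN1A lay above its sum in both, at 0.87 ± 0.17 (adjusted p = 5.89e-04) and 0.71 ± 0.17 (adjusted p = 0.00415). The 2 contrasts share the PBS and TGFB libraries.

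The CCND3 departure in EGF+OSM (0.21) lost its call without EGF replicate 1 (0.18), OSM replicate 1 (0.17), EGF+OSM replicate 1 (0.21), PBS replicate 2 (0.16), EGF replicate 2 (0.21), EGF+OSM replicate 2 (0.22), PBS replicate 3 (0.22), OSM replicate 3 (0.21) or EGF+OSM replicate 3 (0.20). That in OSM+TGFB (0.23) lost it without OSM replicate 1 (0.19), TGFB replicate 1 (0.20), PBS replicate 2 (0.18), TGFB replicate 2 (0.24), OSM+TGFB replicate 2 (0.23), PBS replicate 3 (0.24), OSM replicate 3 (0.24) or OSM+TGFB replicate 3 (0.19), and both lost it in a fit of the compared groups only. Those of CDK4 and CDKN1A in the TGFB pairs and of CCND1 in EGF+OSM kept their call under every alternative run. CDKN1A in EGF+OSM, at 0.39 ± 0.17 (adjusted p = 0.0804), was not called, but was with DESeq2 (0.40), with the replicate block (0.40), and without EGF replicate 2 (0.47), OSM replicate 2 (0.48) or EGF+OSM replicate 3 (0.49).

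**Figure D5:**
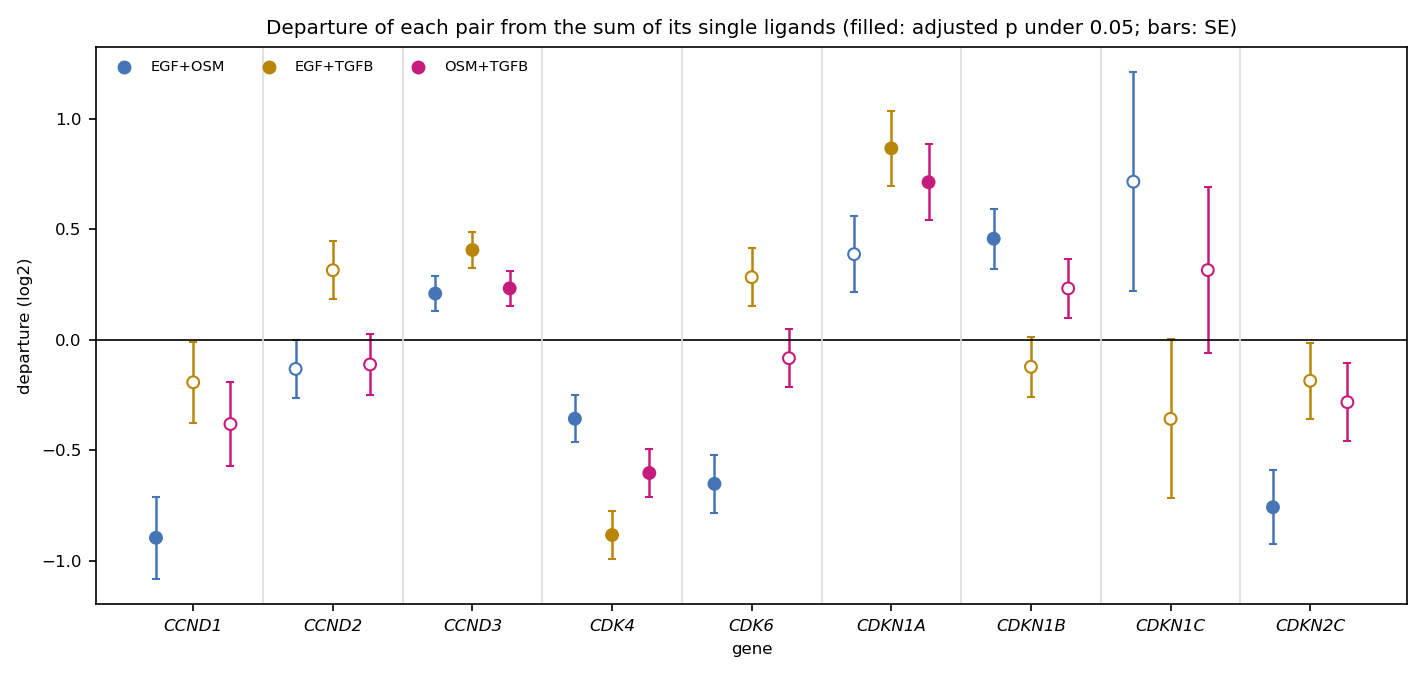
Departure of each pair from the sum of its single ligands (vertical axis, log2, bars SE) for the 9 members; filled points passed the threshold in edgeR. CDK4 is below 0 and CDKN1A above 0 in both TGFB pairs, from -0.88 to 0.87 in EGF+TGFB.

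Adding OSM to EGF lowered CCND1, CDKN1A and CDKN1C. Of the 9, 7 were called (1 higher and 6 lower; the background was 34.9% of all genes tested, 17.8% higher and 17.1% lower), and 4 or 5 when any one library of either group was left out. CCND2 (-0.24) lost its call without EGF replicate 1 (-0.23), EGF replicate 2 (-0.15), EGF+OSM replicate 2 (-0.23) or EGF+OSM replicate 3 (-0.21), and with no filter. CCND3 (-0.17) lost it without EGF replicate 2 (-0.16), EGF+OSM replicate 2 (-0.16) or EGF replicate 3 (-0.15). CDK4 (0.22) lost it without EGF replicate 1 (0.19), EGF+OSM replicate 1 (0.21), EGF replicate 2 (0.21) or EGF+OSM replicate 3 (0.19), and CDKN2C (-0.35) without EGF+OSM replicate 1 (-0.34), EGF+OSM replicate 2 (-0.31) or EGF replicate 3 (-0.28). CDKN1C fell by 3.26 (SE 0.36, adjusted p = 4.98e-07) and CDKN1A by 0.53 (SE 0.12, adjusted p = 0.00173). When EGF was added to OSM, 8 were called (5 higher and 3 lower; the background was 61.7% of all genes tested, 29.9% higher and 31.8% lower), led by CCND1 upward (1.54 ± 0.13) and CDKN1C downward (-2.56 ± 0.38; adjusted p = 2.80e-09 and 8.11e-06). Set directly against EGF, OSM left 7 members lower (the background was 56.8% of all genes tested, 28.0% higher and 28.8% lower), while CDKN1A and CDKN1B were not called (0.13 ± 0.12 and 0.18 ± 0.10). In that comparison CDK4 was at -0.21, a call lost without OSM replicate 1 (-0.18), OSM replicate 2 (-0.20) or EGF replicate 3 (-0.17).

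PBS at 24 h was also set against T0. Neither had an added ligand, and as the labels do not place T0 before or after the 18 h without growth factors, time and the removal of EGF from the medium cannot be told apart in this comparison. Of the 9, 4 were called (1 higher and 3 lower; the background was 35.1% of all genes tested, 16.2% higher and 18.9% lower). CDKN1B rose, from 35.3, 29.96 and 26.3 CPM in T0 to the PBS values above (0.48 ± 0.09 SE, adjusted p = 2.38e-04), with no overlap. CDKN2C fell from 9.73, 8.99 and 10.2 CPM (-0.82 ± 0.12, adjusted p = 4.81e-06), also with no overlap. CCND2 fell from 19.97, 18.4 and 19.6 CPM (-0.30, or -0.23 and not called without PBS replicate 3) and CDK6 from 70.8, 69.7 and 75.5 CPM (-0.27, or -0.19 without PBS replicate 2 and -0.23 without T0 replicate 3, neither called, nor with no filter). CDKN1C was at 57.5, 94.4 and 109 CPM in T0, where replicate 1 was the lowest, and its difference of 0.48 ± 0.22 (adjusted p = 0.102) passed without PBS replicate 1 (0.66) or T0 replicate 3 (0.68). CCND1, CCND3, CDK4 and CDKN1A were not called, with log2 fold changes of -0.18, 0.00, -0.18 and 0.17. CDK4 was called in a fit of the 2 groups only (-0.17) and with the replicate block (-0.18), and CDKN1A with the block (0.17).

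The wider G1 to S machinery was read from a list of 21 genes (E-type cyclins, CDK2, E2F and pocket proteins, and others), 20 of them tested; CDKN2A was the one left out. With EGF 17 higher and 1 lower were called, with OSM 15 higher and 1 lower, and with TGFB 2 higher and 2 lower. Of all genes tested, 34.9% higher and 38.6% lower were called with EGF, 33.5% higher and 29.8% lower with OSM, and 19.9% higher and 15.8% lower with TGFB. The strongest with EGF were CCNA2 (4.51), a cyclin of S phase, CCNE2 (4.13), a cyclin of CDK2, CDC25A (3.47), the phosphatase that activates CDK2, and E2F1 (2.63). CDK2 itself rose with EGF by 2.40 ± 0.09 (SE, edgeR adjusted p = 2.3e-17) and with OSM by 1.94 ± 0.09 (adjusted p = 9.26e-16). It also rose with TGFB, by 0.64 ± 0.09 (adjusted p = 4.11e-06). With TGFB alone E2F2 fell by 1.14 and E2F1 by 0.95. Added to EGF, TGFB left 1 higher and 15 lower, added to OSM 1 higher and 16 lower, and added to EGF+OSM 1 higher and 17 lower, where 27.7%, 25.6% and 29.5% of all genes were lower. The 1 higher was CDKN2D each time, an INK4 inhibitor, at 0.89, 0.83 and 0.76. With TGFB alone CDKN2D was not called (0.31, edgeR adjusted p = 0.134). The list medians were 1.07, 0.79 and -0.03 with EGF, OSM and TGFB, against -0.07, 0.00 and -0.01 over all genes tested.

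Markers of S phase to mitosis changed in the same comparisons. EGF and OSM each raised all 14, with medians of 3.97 and 3.41 (over all genes tested, -0.07 and 0.00, with 34.9% and 33.5% higher), led by RRM2 (5.26 with EGF), a ribonucleotide reductase subunit, and AURKB (4.23 with OSM), a mitotic kinase. TGFB lowered 4 of them on PBS and all 14 on EGF, on OSM and on EGF+OSM. On these ligand backgrounds the medians were -0.97, -1.71 and -1.30, against -0.01, 0.00 and 0.02 over all genes tested. Of all genes tested, 15.8% were called lower with TGFB on PBS, and 27.7%, 25.6% and 29.5% on the ligand backgrounds. PBS had all 14 lower than T0 (median -2.47, against -0.01 over all genes tested, of which 18.9% were called lower). The part of cycling cells in the members' levels was not tested.

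Factors known to act on the members were read from a list of 16, all tested. With EGF 4 higher and 11 lower were called. FOXM1 had the largest change with EGF (4.26), with OSM (3.40) and in PBS against T0 (-2.93), and KLF6 with TGFB (0.82). ETS2 fell with EGF (-1.15) and rose with OSM (2.10) and with TGFB (0.54). FOXO1 and FOXO3, which are known to activate CDKN1B, fell with EGF by 2.13 and 1.86, and with OSM by 1.24 and 1.49. Both rose in PBS against T0 (0.74 for FOXO3 and 0.50 for FOXO1). KLF4, which is known to activate CDKN1A, fell with EGF (-0.95) and with OSM (-1.86) and rose with TGFB (0.57). With OSM 9 higher and 5 lower were called and with TGFB 6 higher and 4 lower. Of all genes tested, 73.5%, 63.4% and 35.6% were called in the same comparisons, in either direction. The list medians were -0.63, 0.33 and 0.15 with EGF, OSM and TGFB, beside the same values over all genes as for the G1 to S list. The part of these factors in the members' changes was not tested.

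Genes whose mean log2 CPM over the 9 groups was most like that of a member were found by Pearson's r over the 9 means, as a description. The groups share ligands. For CCND1 the first 2 were DCBLD2 (r = 0.989) and PHLDA2 (0.979). For CDK4 they were PRPF19 (r = 0.997), MRPL50 (0.9903) and KAT2A (0.987). For CDKN1A they were ADCY6 (r = 0.991), SHISA4 (0.987) and ARHGEF17 (0.986), and for CDKN1C SPRR5 (r = 0.996), CDC42BPG (0.996) and CLDN7 (0.995). The closest to CDKN1B was PRSS27 and to CDKN2C TIMM8B, where r was 0.967.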

How the data were processed

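Polyadenylated RNA was sequenced from stranded libraries, per the labels' protocols. The deposited values are estimated counts per gene: the submitters' processing notes name kallisto 0.46.2, Trim Galore 0.4.3, cutadapt 1.10 and R 3.5.0, and the builds GRCh38.p5 and hg38; the step from transcripts to genes is not given in the sources used here. The values were already whole, so rounding changed nothing. Rows sharing a symbol were summed over the whole table (40487 rows to 36536 names; 7165 rows without a symbol kept their identifier and held 0.324% of counts).

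Low genes were removed with filterByExpr, which left 15575; library sizes were scaled by TMM (factors 0.867 to 1.12). edgeR 4.0.16 in R 4.3.3 fitted a mean per group over all 27 libraries (glmQLFit, robust, 18 residual degrees of freedom), and 17 contrasts were tested with glmQLFTest and Benjamini-Hochberg adjustment over all genes tested. The script was checked on simulated counts. Alternatives were DESeq2 1.42.0, upper-quartile scaling, no filter, rows as deposited, the compared groups only, a replicate block and leaving out each library. All members were named. Of the other lists, up to 4 called genes with the largest change per comparison could be named. A gene so named could also be given in other comparisons. MYC and CDKN2D were named outside that rule. The members and lists were chosen with earlier results of these data known. A further list of genes is not reported here. Gene positions and transcript lengths are from GENCODE v44 (GRCh38), matched by Ensembl identifier. Counts lack molecular identifiers, so limits from counting cover counting error only.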

Additional observations from a re-analysis of the deposited data

Results flagged for a closer look

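The effect of a ligand differed with the other ligand of the pair, by the test of the departure from additivity (edgeR, adjusted p under 0.05), in 6 of 9 members with EGF+OSM and in 3 and 3 with the TGFB pairs EGF+TGFB and OSM+TGFB, where 38.7%, 29.8% and 23.3% of all genes tested departed. In EGF+OSM the departures were -0.90 for CCND1, 0.21 for CCND3, -0.36 for CDK4, -0.65 for CDK6, 0.46 for CDKN1B and -0.76 for CDKN2C, in log2 units. In EGF+TGFB they were 0.41 for CCND3, -0.88 for CDK4 and 0.87 for CDKN1A. In OSM+TGFB they were 0.23 for CCND3, -0.60 for CDK4 and 0.71 for CDKN1A. CDK4 and CCND3 departed in all 3 pairs, CDK4 below and CCND3 above the sum. The CCND3 call was lost under 10 of 18 alternatives in EGF+OSM and 9 of 18 in OSM+TGFB. In EGF+TGFB CCND3 kept its call under all 18, as CDK4 did in each pair.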

How the results depend on the processing

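Of 153 member results, 103 were called, 85 of them under every alternative run, 18 lost the call under at least 1 and 0 changed direction; of the 50 not called, 19 gained a call under at least 1. The number of members called with TGFB moved from 4 to 7 with the compared groups only, and ranged from 1 to 5 over left-out libraries. For EGF+OSM against EGF it was 7, and 4 to 5 over left-out libraries, which also leave fewer libraries to test. Deviations from the group means were correlated between libraries of different groups. Same-numbered pairs had a median r of 0.0574, with 23 of 108 over 0.1. Different-numbered pairs had a median r of -0.0349, with 1 of 216 over 0.1. Of 27 libraries, 26 correlated best with their own number. Part of the variation thus went with replicate number, though the labels tie libraries by number alone. The reported fit has no term for replicate number, so its SEs and p-values leave this out. With the replicate block the count of departures for EGF+TGFB was 5 in place of 3, and the counts for the other contrasts stayed within 1.5 times. CDKN1A gained a call with the block in TGFB vs PBS (0.13), PBS vs T0, OSM vs EGF and the EGF+OSM departure, CDK4 in PBS vs T0, CDK6 in TGFB vs PBS and CCND2 in EGF+OSM+TGFB vs EGF+OSM. Over all genes, the share of EGF+TGFB departures above the sum moved by -11.1 percentage points with the compared groups only and by 10.5 without EGF+TGFB replicate 3.

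No result that changed sign was called, either as reported or under the alternative; the cause was not tested. With the reported value in parentheses, these were CDKN2C in EGF+TGFB vs PBS (0.080), -0.014 (upper-quartile scaling) and -0.017 to 0.16 over left-out libraries; CDKN1B in OSM+TGFB vs OSM (0.015), -0.015 (upper-quartile scaling) and -0.031 to 0.059 over left-out libraries; CDKN1C in the EGF+OSM departure (0.72), -0.24 (rows as deposited). CCND3 in PBS vs T0 (-0.0011), 0.0050 (compared groups only) and 0.0094 (DESeq2) and -0.055 to 0.044 over left-out libraries; CDKN2C in EGF+OSM vs OSM (0.031), -0.039 to 0.13 over left-out libraries; CDKN1B in EGF+OSM+TGFB vs EGF+OSM (-0.041), -0.14 to 0.026 over left-out libraries. CCND3 in EGF+OSM vs PBS (-0.013), -0.057 to 0.042 over left-out libraries; CDKN1A in EGF+TGFB vs PBS (-0.057), -0.15 to 0.067 over left-out libraries; CCND1 in OSM vs PBS (-0.055), -0.25 to 0.078 over left-out libraries. CCND1 in OSM+TGFB vs OSM (-0.12), -0.25 to 0.082 over left-out libraries; CCND2 in EGF+TGFB vs EGF (0.069), -0.030 to 0.17 over left-out libraries; CDK6 in the OSM+TGFB departure (-0.083), -0.19 to 0.097 over left-out libraries.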
